A study of Mus musculus with 3 samples.

Results

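Of the 4780 Tbx4 summits deposited for the mouse hindlimb bud, 1172 lay between genes, more than 1 kb and at most 100 kb from the nearest end of a protein-coding gene, with no Hoxc10 summit within 200 bp. These intergenic sites made up 24.5% of the Tbx4 list (95% Wilson interval 23.3 to 25.8%) and 27.5% (26.2 to 28.9%) of the 4261 Tbx4 summits without Hoxc10. They were chosen by the presence of a Tbx4 peak, the absence of a Hoxc10 peak and their place among 21883 protein-coding genes, so these properties are not findings here. Chromatin immunoprecipitation with sequencing (ChIP-seq) had been done on hindlimb buds of wild-type CD1 embryos at stage e11.5, with a homemade antibody to Tbx4 and an Abcam antibody to Hoxc10. The peak list of 1 library per antibody was used, so nothing below was compared over replicates, no test was made, and every interval covers counting error only. The other Hoxc10 sample, made with a Santa Cruz antibody, was not analysed here. It is not known whether the Abcam Hoxc10 list was limited to summits near peaks of that other antibody, in which case some of the 1172 sites could have had an Abcam summit that is not listed. No label says whether embryos were pooled for a library, and read depth is unknown. A bud holds mesenchyme, ectoderm, vessels, nerves and blood cells, and the list does not tell which of these cells carried a site.

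Tbx4 is a T-box transcription factor of the hindlimb field. T-box proteins bind DNA at short elements whose core reads AGGTGT, and act from promoters and from enhancers. Enhancers of limb regulators often lie between genes, sometimes far from the gene they act on and beyond an unrelated neighbour. Hoxc10 belongs to the posterior Hox factors, which are present in the hindlimb bud. For that reason the genes on both sides of each site are described, not the nearest gene alone, and no site is assigned to a target.

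Sequence was at hand for the few intergenic sites that fell in a promoter window of a non-coding gene. RefSeq windows on GRCm38.p6, the same assembly as mm10, run from 250 bases before a gene's start to 50 after it. Of the 1172 sites 22 lay in such a window, and all 22 windows belonged to long non-coding RNA (lncRNA) genes, since protein-coding starts are outside the zone. Windows for 1 chromosome, which held 45 of the sites, were not analysed here. The scores of these 22 sites ran from 2.26 to 18.38, with a median of 3.67. The MACS2 score used here is a value on a −log10 scale, higher for a stronger peak. In all, 5 windows are printed: the 2 with the highest scores, 2 of the 3 that held both an E-box and a T-box core, and that of Gm35291, which lies in 1 of the gaps richest in sites. Each is written 5′ to 3′ on the strand of the lncRNA gene. Capitals mark the E-box CAGCTG, which bHLH factors bind, and the T-box core AGGTGT, also as its reverse complement ACACCT.

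Gm41624, chr17:79728774-79729073, minus strand: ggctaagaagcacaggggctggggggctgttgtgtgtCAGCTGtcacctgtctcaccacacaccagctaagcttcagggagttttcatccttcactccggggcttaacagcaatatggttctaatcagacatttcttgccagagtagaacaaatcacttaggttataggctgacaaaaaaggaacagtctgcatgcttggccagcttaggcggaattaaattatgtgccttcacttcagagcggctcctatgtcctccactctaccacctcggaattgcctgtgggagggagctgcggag
Gm33631, chr13:53309701-53310000, minus strand: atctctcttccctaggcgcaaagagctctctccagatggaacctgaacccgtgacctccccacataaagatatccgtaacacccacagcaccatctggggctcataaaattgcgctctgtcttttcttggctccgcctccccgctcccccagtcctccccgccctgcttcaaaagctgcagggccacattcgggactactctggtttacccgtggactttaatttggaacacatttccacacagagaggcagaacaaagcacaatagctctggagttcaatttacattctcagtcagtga
C230014O12Rik, chr2:34107686-34107985, minus strand: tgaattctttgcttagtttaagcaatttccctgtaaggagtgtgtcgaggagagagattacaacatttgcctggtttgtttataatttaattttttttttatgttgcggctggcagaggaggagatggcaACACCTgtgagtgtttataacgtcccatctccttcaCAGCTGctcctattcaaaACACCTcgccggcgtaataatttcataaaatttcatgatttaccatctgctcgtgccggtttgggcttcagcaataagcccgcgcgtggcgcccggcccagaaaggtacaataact
2810433D01Rik, chr11:102624367-102624666, minus strand: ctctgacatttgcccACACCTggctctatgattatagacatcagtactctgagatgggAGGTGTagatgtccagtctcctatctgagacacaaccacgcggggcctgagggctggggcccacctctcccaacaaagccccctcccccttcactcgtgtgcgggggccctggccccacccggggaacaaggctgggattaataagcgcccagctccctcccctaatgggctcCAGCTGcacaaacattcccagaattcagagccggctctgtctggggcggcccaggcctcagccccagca
Gm35291, chr10:23711438-23711737, minus strand: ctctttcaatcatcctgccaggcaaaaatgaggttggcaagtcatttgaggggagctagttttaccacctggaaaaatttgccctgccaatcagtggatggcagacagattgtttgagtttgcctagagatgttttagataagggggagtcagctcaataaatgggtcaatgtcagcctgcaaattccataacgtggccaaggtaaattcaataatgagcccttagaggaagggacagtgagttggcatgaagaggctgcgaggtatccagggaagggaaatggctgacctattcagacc

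At Gm41624, between Cyp1b1 and Atl2, the summit scored 18.38 and lay 96 bases before the start, with an E-box 114.5 bases away. At Gm33631 it scored 12.42, lay 130 bases before the start and had neither motif in the window. This gene stands between Ror2, a receptor for Wnt5a in the limb, and Sptlc1. The window of C230014O12Rik, between Mvb12b and the Hox cofactor gene Pbx3, held 2 T-box cores and 1 E-box, all on the same side of a summit of 4.46. That of 2810433D01Rik, beside the Wnt receptor gene Fzd2, held 2 T-box cores, the nearer 184.5 bases from a summit of 2.94. Its E-box was the closest to a summit in any of the 22 windows. At Gm35291 a summit of 2.26 had neither motif.

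The E-box CAGCTG, which is its own reverse complement, was in 11 of the 22 windows, or 50% (95% Wilson interval 30.7 to 69.3%). Of all 32850 windows of the same length 16.3% held it, as did 17.7% of the 11588 lncRNA windows. Among 178 windows with a Tbx4 summit at a protein-coding gene end and no Hoxc10, the share was 15.2% (10.6 to 21.2%). The matches were not centred on the summits: the median distance to the nearest was 99.5 bases, and 3 lay within 50 bases. Median GC content was 56.3% in the 22 windows, 48.3% in lncRNA windows and 64% in the windows at gene ends, and its part in the difference was not tested. The T-box core AGGTGT, searched on both strands, was in 5 of the 22 windows, or 22.7% (10.1 to 43.4%). It was in 13.7% of all windows and 15.7% of lncRNA windows, so that the interval covers both backgrounds. In the 5 windows the nearest core lay 37.5 to 240.5 bases from the summit. The longer half-site GGTGTGA, which overlaps that core, was in 0 of 22, against 3.98% of all windows. Other motifs were also searched on both strands. TTTATNG of posterior Hox factors was in 4 windows or 18.2% (7.31 to 38.5%), against 10.9% of all and 13.35% of lncRNA windows. TAATCC of Pitx factors was also in 4, against 7.06 and 8.23%. TAATTA of many homeodomains was in 1 or 4.55%, against 5.29 and 6.68%. CAGCTG was added to the search after the windows had been read, so its share is a description. A match is not a site of binding.

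**Figure D1:**
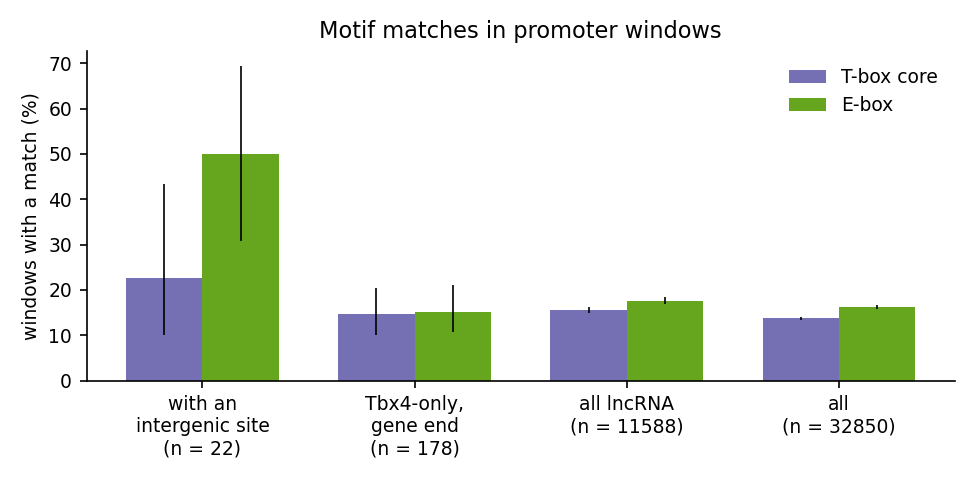
Share of promoter windows of 300 bases with a match (vertical axis, percent) for the T-box core and the E-box, in 4 sets of windows with their numbers below. Bars are shares and lines 95% Wilson intervals; the E-box bar of the 22 windows with an intergenic site is at 50%, the other E-box bars lie between 15.2 and 17.7%.

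Most of the 1172 intergenic sites had low scores. The median was 3.67, with quartiles of 2.94 and 6.19, and the range was 1.34 to 90.49. Scores came in steps: 60 distinct values occurred, and the 6 most frequent held 69.7% of the sites. The lowest common steps were 1.63 with 59 sites, 2.26 with 216, 2.94 with 177 and 3.67 with 155. Of the 1172 sites 168 scored above 10, or 14.3% (95% Wilson interval 12.4 to 16.5%), 47 above 20 and 26 above 30.

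Sites in deeper gene deserts, over 100 kb from any gene end, had much the same scores: 13.01% (10.9 to 15.5%) of 815 were above 10. The same holds for the 1668 sites inside genes, at 15.05% (13.4 to 16.8%). The 606 sites at gene ends were lower, with a median of 2.94 and 6.44% (4.74 to 8.68%) above 10, an interval that does not overlap that of the intergenic sites. The 154 Tbx4 sites of the same zone that did have a Hoxc10 summit were higher, with a median of 7.14 and 38.3% (31.01 to 46.2%) above 10. The score comes from the same peak call that put a site in the list, so these values are descriptions.

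**Figure D2:**
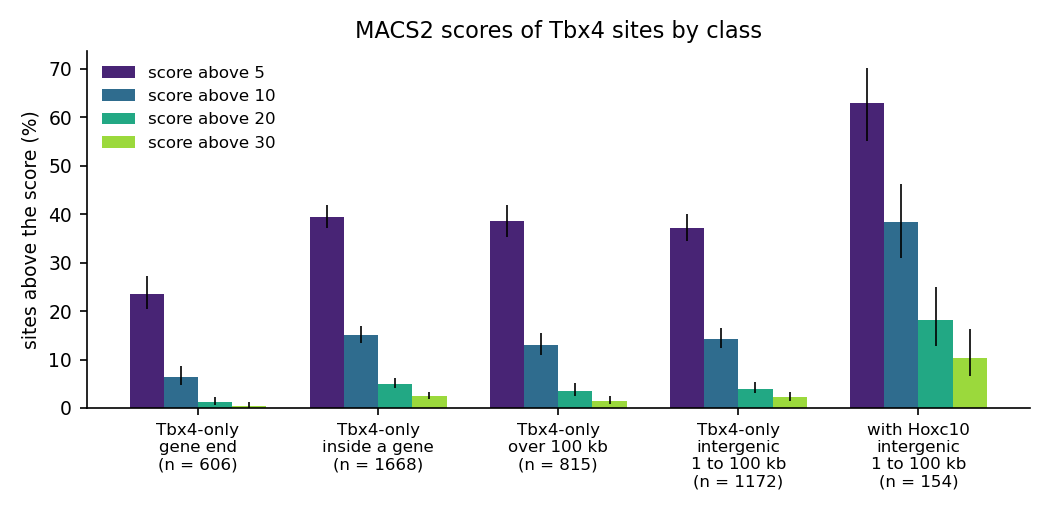
Share of Tbx4 sites above a MACS2 score of 5, 10, 20 or 30 (vertical axis, percent) in 5 classes, with 95% Wilson intervals. Intergenic sites without Hoxc10 (37.2% above 5) stand beside the desert sites and those inside genes, above gene ends (23.6%) and below intergenic sites with Hoxc10 (62.99%).

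The highest intergenic sites lay beside genes of several kinds. The top site scored 90.49, lay at 81726822 of chromosome 7 and ranked 11 in the whole Tbx4 list. It lay 19897 bp from the start of Homer2, a scaffold protein of glutamate receptor signalling, and 36131 bp from Ramac, a cofactor of mRNA capping. The next, at 129540273 of chromosome 2 with 87.04, was 3671 bp from F830045P16Rik and 50769 bp from Sirpa, the receptor for CD47. At 13114306 of chromosome 18 a site of 71.85 lay in the long gap between the histamine receptor gene Hrh4 (90605 bp) and Zfp521, which encodes a zinc-finger factor (572707 bp). The nearest Hoxc10 summits were 694682, 3681103 and 282954 bp away.

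On chromosome 11 a site of 57.24 lay at 57827618, 1095 bp from Hand1, a bHLH factor gene of the limb and heart, and 17003 bp from Sap30l, of the Sin3 corepressor complex. A site of 50.96 at 133941645 of chromosome 1 was 11543 bp from Prelp and 95609 bp from Fmod, both small leucine-rich proteoglycans of connective tissue. Lbh, named for the limb bud and heart, was 80811 bp from a site of 46.35 at 73022757 of chromosome 17, with Lclat1 on the other side. Between Bmpr1b, the BMP receptor of digit cartilage, and the PDZ-LIM gene Pdlim5, a site of 41.82 at 142238506 of chromosome 3 lay 1079 bp from Pdlim5, with a Hoxc10 summit 389 bp away. Between the mitochondrial ribosomal gene Mrpl23 and the growth factor gene Igf2, 2 sites scored 55.65 and 13.57, at 142559913 and 142571681 of chromosome 7. On chromosome 2 the gap of 575 kb between Mtx2, the neighbour of the HoxD cluster, and Gm50595 held 4 sites, the highest 68.55 at 75440067, 563319 bp from Mtx2.

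Aff3, a gene of the AF4 family of nuclear proteins, had 3 sites in the gap towards Lonrf2, all above 10: 38.86 at 1777 bp from its start, 47.87 at 127777 bp and 11.3 at 130376 bp. Another site of 47.87 lay 1015 bp from the potassium channel gene Kcnh2 and 12117 bp from Nos3, the endothelial nitric oxide synthase. The remaining sites among the 15 highest were beside Tmem121 and Adam6b (47.87), Cdv3 and the lens filament gene Bfsp2 (44.83), and Rasl11a and Gtf3a, the factor of 5S ribosomal RNA transcription (38.86). Hand1, Bmpr1b and Nos3 also belong to gene lists described below.

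The sites were spread over the zone. Their distance from the nearest gene end had a median of 23.8 kb, with quartiles of 7.07 and 51.3 kb. The zone between 1 and 100 kb measured 842 Mb, which gives 1.39 sites per Mb (exact 95% Poisson interval 1.31 to 1.47). Tbx4 sites without Hoxc10 stood at 1.03 per Mb (0.965 to 1.11) over 100 kb from genes and at 1.69 (1.61 to 1.77) inside genes, away from their ends. Density was highest next to the lower limit, at 2.81 per Mb between 1 and 2 kb, 1.60 between 2 and 5 kb and 1.18 between 10 and 25 kb. Between 50 and 100 kb it was 1.37. The median score was 2.94 between 1 and 2 kb, 3.67 between 2 and 5 kb and 3.67 or 4.46 in the bins beyond. No correction was made for sequence to which reads cannot be mapped. On chromosomes X and Y 8 and 12 sites were listed, or 0.122 and 0.294 per Mb, against 1.21 to 2.06 on the autosomes.

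Near genes, sites were denser beyond the far end than before the start. Between 2 and 5 kb, 66 sites were nearest to a far end and 29 to a start, or 2.12 per Mb (1.64 to 2.70) against 0.840 (0.562 to 1.21), intervals that do not overlap. Between 1 and 2 kb the densities were 2.97 (2.09 to 4.09) and 2.28 (1.54 to 3.26), with overlapping intervals. From 5 to 10 kb the values were 1.26 and 1.08. Over the whole zone 477 sites were nearest to a far end and 413 to a start, 1.56 (1.42 to 1.70) against 1.17 (1.06 to 1.29) per Mb. For the other 282 sites the nearest gene had no strand in the table and they were left out.

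**Figure D3:**
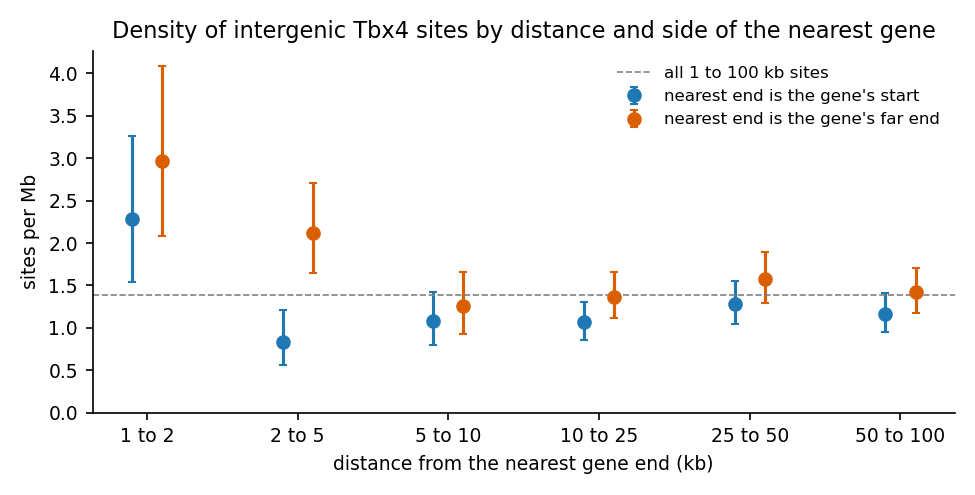
Intergenic Tbx4 sites per Mb (vertical axis) by distance from the nearest gene end in kb, for sites nearest to a gene's start and to its far end, with exact 95% Poisson intervals. The dashed line is the density of all 1172 sites, 1.39 per Mb; the sides are farthest apart between 2 and 5 kb.

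Many sites lay inside lncRNA genes, 242 of 1172 or 20.6% (95% Wilson interval 18.4 to 23.1%), while lncRNA genes covered 11.9% of the zone. This made 2.41 sites per Mb (exact 95% Poisson interval 2.11 to 2.73) inside them and 1.25 (1.18 to 1.34) outside. The median score was 4.46 inside and 3.67 outside. The highest were the site of 68.55 in 9430019J16Rik in the gap beyond Mtx2, that of 46.35 in Gm30420 beside Lbh, and that of 38.86 in Gm34596 beside Aff3. Next came 34.51 in Gm30252 beside Boc, and 33.08 both in Gm35291 between Eya4 and Rps12 and in Gm35620 between Alox5ap and Medag. Counting not only lncRNAs but every non-coding gene and pseudogene, 265 sites lay inside a gene. MicroRNA genes were within 10 kb of 16 sites, or 1.37%, the closest Mir760, 621 bp from a site of 14.74. The share of the zone that lies so close to a microRNA gene was not measured, so this count is a description only. Among the 16 were Mir140, a microRNA of cartilage (2.94 at 9355 bp), Mir675, which is processed from the H19 RNA (13.57 at 5383 bp), and Mirlet7d (3.67 at 1941 bp).

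The sites fell into 915 gaps between neighbouring genes. Of these gaps 733 held 1 site, 131 held 2, 35 held 3 and 12, 1, 2 and 1 held 4, 5, 6 and 7. Gaps with a site had a median length of 129 kb, against 17.3 kb for all 19694 gaps. This contrast follows in part from the rule. A site must lie over 1 kb from both bounding genes, and a longer gap has more room for sites. The most sites, 7, lay between Gsc, a homeobox gene first known from the gastrula organizer, and Dicer1, the nuclease of microRNA maturation. They scored 2.26 to 9.15 over 193 kb, and 6 of them were nearer to Dicer1. The last, 8173 bp from Dicer1, had a Hoxc10 summit 247 bp away, while the other 6 had theirs at 10594 to 52134 bp.

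Between Eya4, a gene of the eyes absent family of coactivators, and the ribosomal protein gene Rps12 there were 6 sites. The highest, 33.08, was 495 bp from another of 2.26, and these lay 360354 and 360849 bp from Eya4, with a Hoxc10 summit 954 and 459 bp away. Tle3, a Groucho corepressor gene, had 6 sites towards Uaca and 1 on its other side. A pair of 19.64 and 7.14 lay 60495 and 59128 bp from it, and a pair of 9.15 and 1.63 at 2343 and 3433 bp. Hes1, a repressor gene downstream of Notch, had 4 sites towards Opa1 and 3 towards Cpn2, with scores of 2.26 to 11.3 and distances of 56347 to 330035 bp. In the gap between Ddx1 and Mycn, which promotes growth of limb progenitors, 4 sites of 3.67 to 22.2 stood within a stretch of 17.6 kb. They lay 238923 to 256542 bp from Mycn and 20929 to 38548 bp from Ddx1. Zfp521 had, besides the site of 71.85, a site of 19.64 only 8209 bp from that summit, and 2 others of 6.19 and 5.3, the last 3213 bp from the gene.

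**Figure D4:**
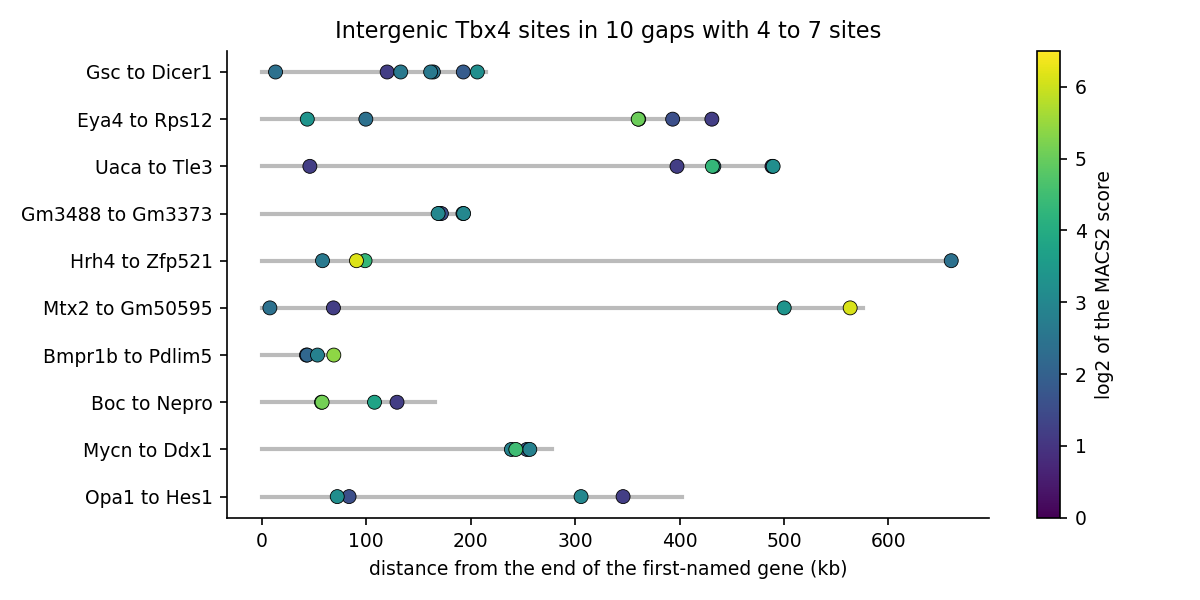
Positions of intergenic Tbx4 sites in 10 gaps with 4 to 7 sites, as the distance in kb from the end of the first-named gene (horizontal axis). Of the 12 gaps with 4 sites only the 6 with the highest-scoring site are drawn. Grey lines span each gap, points are sites and their colour is the log2 of the MACS2 score; sites of the Mycn gap stand together near Ddx1, while those between Gsc and Dicer1 are spread over 193 kb.

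Another Tbx4 summit lay within 10 kb of 201 sites, 17.2% (95% Wilson interval 15.1 to 19.4%), and within 1 kb of 69, 5.89%. These shares were near those of all 4780 Tbx4 sites, 15.02 and 5.13%. No pair was closer than 304 bp, and 54 sites had their neighbour at 500 to 1000 bp. The 117 sites with a neighbour within 2 kb had the same median score as the others, 3.67. Some groups were tight: 4 sites of 2.26 to 3.67 stood within 2275 bp between Atp10a and Ube3a, and 3 of 2.26 to 9.15 lay 1905 to 4291 bp beyond Srsf3, on the side of Cdkn1a. These groups were named after their values were seen. In the region of chromosome 14 with repeated, unnamed genes, 5 sites beside Gm3373 lay at 2344, 2993, 23642, 25516 and 26720 bp, and 3 beside Gm3500 at 2210, 25391 and 26514 bp. Between Fam205a3, Gm21586 and Fam205a2 on chromosome 4, 5 sites included pairs 697 and 834 bp apart. Whether these are separate sites was not tested. Gaps bounded by any gene with a symbol of Gm and a number, or Fam205a, held 102 of the 1172 sites, with a median score of 3.815. This count also takes in genes outside these regions, such as Gm50595 beyond Mtx2 and Gm11677 beside Sox9. It therefore does not measure sites among repeated genes.

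Genes of limb development were often beside an intergenic site. Of all 21883 protein-coding genes, 7.81% had at least 1 in the gap on either side, 6.28% had it within 100 kb, and 4.36% were the nearest gene of at least 1. The 16 lists below hold 437 genes, some of them in several lists, neighbours share sites, and many genes of development stand in long gaps. Densities are therefore given beside the counts. They are per Mb of the zone in the adjoining gaps, that is the part 1 to 100 kb from a gene end, not of the whole gaps. The background density is 1.39 per Mb. The Poisson intervals treat sites as independent, though many share a gap or stand in close pairs. They are therefore too narrow where a few gaps hold many of a list's sites. An earlier analysis of the same list had shown Tbx4 sites at such genes, so the counts are no independent support, and no list was tested.

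Of 53 genes that signal or pattern in limb outgrowth, 26 (49.1%) were beside a site, at 4.52 per Mb (exact 95% Poisson interval 3.35 to 5.98). Lmx1b, which sets dorsal identity, had 4: 1 of 10.21 at 16470 bp on the side of Zbtb43, and 3 of 2.26, 10.21 and 7.14 at 59689 to 78317 bp on the other. Hand2, a bHLH factor gene needed for Shh expression, had 3 sites of 1.63, 7.14 and 10.21 at 9833, 18226 and 81031 bp. The growth factor gene Fgf18 had sites of 2.26 at 1446 bp, 10.21 at 4313 bp and 11.3 at 233414 bp. Besides the site of 57.24, Hand1 had 2 of 2.94 and 15.93 at 50975 and 106267 bp. Hhip, an inhibitor that binds Hedgehog ligands, had 3 of 2.94 to 5.3 within 92734 bp, and was the nearer neighbour of each. Tbx3 had 3 of 6.19 to 8.12, of which 2 lay 829182 and 852060 bp away, nearer to Med13l.

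Of 19 genes of hindlimb and forelimb identity 6 (31.6%) were beside a site, at 5.18 per Mb (2.49 to 9.53). The Tbx4 gene itself had 4. On the side of Tbx2 a site of 10.21 lay 9920 bp from it, and on the side of Brip1 sites of 3.67, 9.15 and 3.67 lay at 1968, 9201 and 100413 bp. The first and the last of the Brip1 side had a Hoxc10 summit 857 and 408 bp away. The Hoxc10 gene shared 1 site of 10.21 with Hoxc11, which was nearer (3257 against 6838 bp). Tbx5, the forelimb counterpart, had 2 of 10.21 and 5.3 at 139398 and 211998 bp, both nearer to Rbm19. Isl1, which starts the hindlimb bud, had 2, at 510642 bp or more. Shox2 had 1 of 2.94 at 1476 bp, and Pitx1 had 0.

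In the list of Hox cofactors and homeodomain partners 15 of 24 genes (62.5%) were beside a site, at 4.89 per Mb (3.13 to 7.27). Pbx3 had 3 sites of 2.94 to 6.19, with a pair 650 bp apart at 64191 and 63541 bp. Irx3 had 1 of 15.93 at 84319 bp on the side of Fto, and shared 2 of 1.63 and 4.46 with Irx5. Six2 had 4 of 1.63 to 8.12, all at 97954 bp or more. In the Hox clusters, whose genes stand close together, 7 of 39 genes (17.9%) were beside a site, and the 7 sites made 8.26 per Mb (3.32 to 17.02). Hoxb1 had 1, of 14.74 at 53417 bp. Of the T-box genes 7 of 17 (41.2%) were beside a site, at 5.64 per Mb (3.16 to 9.31), among them Tbx15, with 3 of 3.67 and 4.46.

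Of 39 cartilage and joint genes 14 (35.9%) were beside a site, at 3.46 per Mb (2.24 to 5.11). Snai1, a repressor of epithelial genes, had 3 of 22.2, 6.19 and 4.46 at 21031, 23060 and 40472 bp. Sox9, the main factor of cartilage formation, had 3, of 9.15 at 1049987 bp and of 1.63 at 83004 and 433958 bp. Pthlh, a signal of the growth plate, had 3 of 3.67 to 5.92. In the list of muscle, tendon and connective tissue 16 of 40 genes (40%) were beside a site, at 2.79 per Mb (1.75 to 4.23). Osr1, a factor of the connective tissue lineages, had a pair of 8.12 and 2.26 at 2318 and 2753 bp and a site of 10.21 at 470565 bp. Eya1 had 3 of 4.46 and Tgfb2 2. Tcf4, as counted in this list, had 2 of 2.26 towards Ccdc68, and is a different gene from Tcf7l2.

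Signalling genes followed. In the Notch, Wnt and Hedgehog list 19 of 37 genes (51.4%) were beside a site, at 5.68 per Mb (4.02 to 7.80). Of its 38 sites, Tle3 and Hes1 had 7 each, Boc 4 and Gas1 3, so a few genes carried much of this density. Boc, a Hedgehog co-receptor gene, had 4 sites towards Nepro: 18.38 and 34.51 only 607 bp apart at 57104 and 57711 bp, 13.57 at 107867 bp and 2.26 at 129435 bp. Gas1, also a Hedgehog co-receptor, had sites of 28.89, 3.67 and 22.2 at 281894, 49041 and 90320 bp. In the BMP, TGF-beta and Hippo list 8 of 24 (33.3%) had a site, at 2.69 per Mb (1.16 to 5.29), an interval that covers the background. Among them were all 4 Id genes, whose products block bHLH factors. Their nearest sites lay at 1436 bp (Id3, 2.94), 2090 bp (Id1, 4.46), 2828 bp (Id2, 10.21) and 24658 bp (Id4, 4.46). Of 30 guidance and adhesion genes 13 (43.3%) had a site, at 2.29 per Mb (1.36 to 3.62), which covers it too. There Ephb3 had 14.74 at 17520 bp, Sema3a 11.3 at 65498 bp, Robo1 3 of 1.63 to 7.14 and Epha4 3 of 2.94 at 501242 bp or more.

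Lists of other tissues rested on 2 to 7 sites each, and the wide intervals of their densities all cover the background. The endothelial and housekeeping densities were nevertheless above those of muscle, tendon and connective tissue (2.79), BMP, TGF-beta and Hippo (2.69) and guidance and adhesion (2.29). Those of the remaining lists were below all of these. Shares were 10% of 20 limb ectoderm genes, 9.09% of 22 blood genes, 8.33% of 24 liver genes and 4.17% of 24 housekeeping genes, with 2, 2, 2 and 1 gene. The 2 of the liver list were Asgr1 and Ins2, and Ins2 is an insulin gene, not one particular to liver. Those of 21 endothelial and 21 neural and Schwann cell genes were 28.6 and 23.8%, at 3.07 (1.23 to 6.32) and 1.98 (0.728 to 4.31) per Mb. The endothelial factor gene Fli1 had 3 sites, of 5.3 and 7.14 towards Kcnj1 and of 2.26 towards Ets1, and Ngfr had 2. The only housekeeping gene was Ywhaz, with 2 sites of 3.67 and 2.94 at 1235 and 2223 bp and 1 of 2.94 at 182793 bp, or 3.01 per Mb (0.621 to 8.81).

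**Figure D5:**
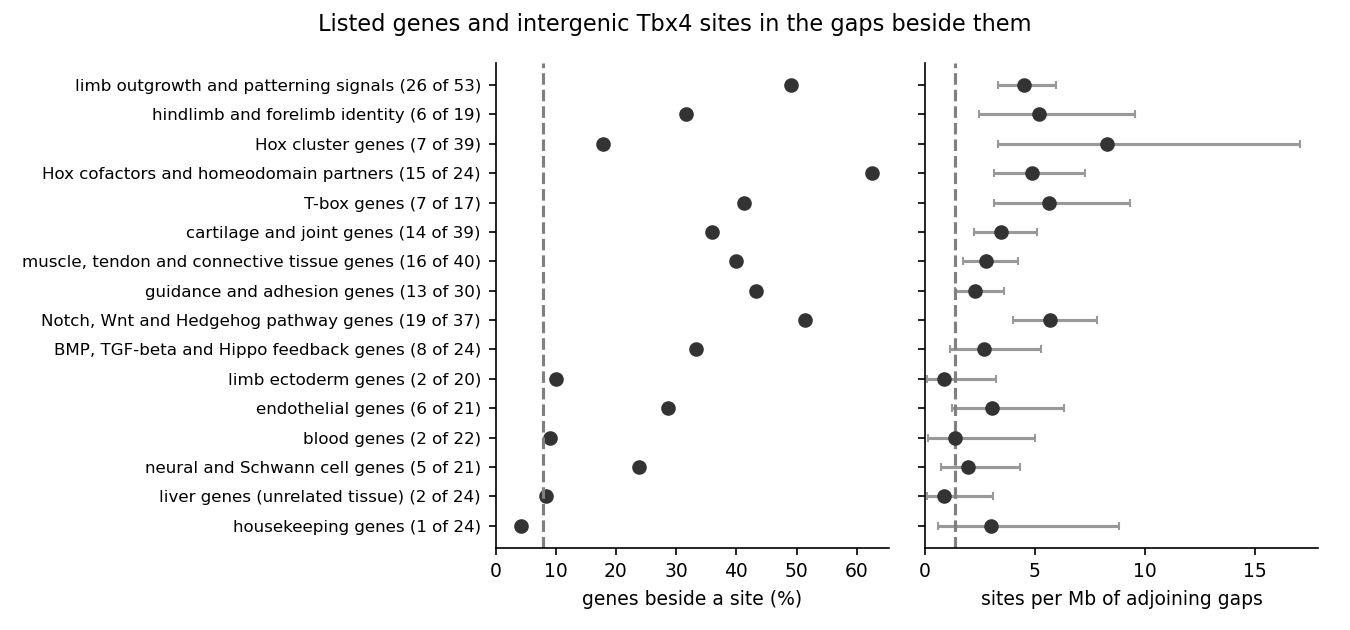
Left, percent of the genes of each list with an intergenic Tbx4 site in a gap beside them (counts in brackets). Right, sites per Mb of the part of those gaps 1 to 100 kb from a gene end, with exact 95% Poisson intervals. Dashed lines are all protein-coding genes, 7.81% and 1.39 per Mb; Hox cofactors and partners are highest by share (62.5%) and housekeeping genes lowest (4.17%).

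The listed gene was the nearer neighbour about as often as the farther. Beside a gene of the first 10 lists lay 203 sites, or 17.3%, and in 191 of them the gene was on 1 side only. The listed gene was the nearer at 102 and the farther at 89, with a median distance of 59.9 kb, and it was over 100 kb away at 65. Places spread evenly over such gaps would also split evenly. The share of the zone beside these genes was not measured, so the 17.3% is a description. Counted as the nearest gene only, against 4.36% of all genes, the shares were 15.8% for limb identity, 17.6% for T-box genes, 10.3% for the Hox clusters and 22.5% for muscle, tendon and connective tissue. They were 23.3% for guidance and adhesion, 29.7% for Notch, Wnt and Hedgehog, 25.6% for cartilage and joint, and 29.2% for BMP, TGF-beta and Hippo. Limb signals had 39.6%, and Hox cofactors and homeodomain partners 58.3%. In the lists of other tissues the shares were 14.3% for neural and Schwann cell, 9.52% for endothelial and 9.09% for blood genes. Liver and housekeeping genes had 4.17% each, and limb ectoderm genes 0%. The median score of the 203 sites was 4.46, against 3.67 of the others, and 16.3% against 13.9% were above 10.

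Although chosen for lacking Hoxc10 within 200 bp, a few sites had it just beyond. A Hoxc10 summit lay within 1 kb of 45 sites, 3.84% (95% Wilson interval 2.88 to 5.10%), and within 10 kb of 91, 7.76% (6.37 to 9.44%). For desert sites the latter share was 8.10% (6.42 to 10.2%), for sites inside genes 5.88% (4.84 to 7.11%) and for gene ends 2.15% (1.26 to 3.64%). The sites just inside this limit were at 201 bp (near Rasgef1b, 20.91), 206 bp (Barx1, 2.94) and 208 bp (Hs3st3a1, 4.46), and those just outside it, which count as shared, at 198 bp (Tmem26, 8.12), 195 bp (Map3k7, 2.94) and 190 bp (Basp1, 6.19). At the lower gene limit the first sites inside were 1011 bp from Zbtb20 (7.14), 1015 bp from Kcnh2 (47.87) and 1022 bp from Cep41 (4.46), and those just outside were 988 bp from Hmgb1 (3.67), 968 bp from Nfatc4 (2.94) and 960 bp from Hpcal4 (3.67). At the upper limit they were 99954 bp from Hmga2 (2.26), 99899 bp from Ccnd2 (4.46) and 99643 bp from Gramd3 (2.26), against 100202 bp from Gm40514 (2.94), 101185 bp from Smim20 (3.67) and 102045 bp from Sdk1 (2.26). The absence of a Hoxc10 summit from the deposited list does not show that Hoxc10 was absent.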

How the data were processed

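The authors deposited peak summits of 1 bp with a score on a −log10 scale, as MACS2 writes it. No header or label says if it comes from p-values or q-values. Bowtie2 2.2.6, MACS2 2.1.1.20160309, HOMER and the mm10 build are named in the submitters' processing notes. The selection of the listed summits and the control library were not stated in any label.

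Summits were set against 21883 protein-coding genes of a RefSeq table of GRCm38.p6 with Python 3.11.15, pandas 2.3.3 and SciPy 1.17.1. Positions are 1-based. Strand came from RefSeq promoter windows, which gave it for 17491 protein-coding genes. A gap is the stretch between neighbouring gene bodies, and the zone is its part 1 to 100 kb from the nearest gene end. Named are genes beside the 15 highest sites, beside the 10 gaps with the most sites (ties by highest score), and up to 6 of each limb list or 4 of other lists. The sites and lists were chosen with earlier results of these data known. The classification was tested on simulated data. Scores were compared only within the Tbx4 list. Some named genes and 1 window are not reported here.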

Additional observations from a re-analysis of the deposited data

How the results depend on the processing

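Of 64 values under 8 other settings and 2 more chosen after seeing the data (without chromosomes X and Y, and without gaps bounded by Gm or Fam205a genes), 54 stayed within 1.5 times the count, or within the interval of the median or share. With only sites above the median score of the Tbx4 list, which by construction leaves fewer and higher sites, there were 560 sites with a median score of 7.14, 921 genes beside a site and 497 nearest genes, and 10.2% of sites had another Tbx4 summit within 10 kb. The median distance to a gene end was 27.1 kb with a lower limit of 2 kb, 13.7 kb with an upper limit of 50 kb and 15.8 kb with all genes of the table, non-coding ones included. The share of sites with Hoxc10 within 10 kb was 11.2% when shared meant within 100 bp and 4.08% when it meant within 1000 bp.

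Of 48 list counts under 3 alternatives 23 moved by over 1.5 times. With sites above the median score, beside 4.21% of all genes, shares were 15% for muscle, tendon and connective tissue and 15.4% for Hox clusters. They were 16.7% for BMP, TGF-beta and Hippo, 23.1% for cartilage, 24.3% for Notch, Wnt and Hedgehog and 26.3% for limb identity. Guidance had 30%, limb signals 32.1%, T-box genes 41.2%, and Hox cofactors and homeodomain partners 45.8%. In the lists of other tissues, endothelial genes and neural and Schwann cell genes had 14.3% each, close to the lowest of these shares. Limb ectoderm genes had 5%, blood genes 4.55%, liver genes 4.17% and housekeeping genes 0%. No paired analysis was possible because 1 list per antibody was used and no result comes from a test. Read depth is unknown, so the precision of a score could not be given.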
